A study of Mus musculus with 16 samples.

Results

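Complement components are plasma and tissue proteins that tag and attack microbes and damaged cells. The 9 complement genes described here were chosen by name in the deposited gene table, 9 of its 41204 genes, and all 9 were among the 23754 genes that passed the filter on low counts and were tested. RNA was measured by sequencing in the supraspinatus, patellar, forepaw flexor and Achilles tendons of C57BL/6J mice, an inbred strain, with 4 libraries per tendon and 16 in all. The tendons are called Supraspinatus, Patellar, Flexor and Achilles below. All libraries came from the same strain with no treatment or engineered allele named in the labels, and the sources used here give neither age nor sex nor the number of animals behind a library. The labels number the mice 1 to 4 within each tendon without saying whether equal numbers are the same animal, so the p-values measure the spread between these libraries. The design compared every pair of tendons.

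In the classical pathway, C1q, a protein built of A, B and C chains that come from separate genes, recognises antibody or other marks on a surface. C1q then activates the proteases C1r and C1s, which cleave C4 and C2 into the enzyme that cleaves C3. C3 is the central component on which the classical, lectin and alternative pathways converge, and C7 is a later component that helps the terminal proteins insert into a membrane. C1 inhibitor, the product of Serping1, blocks C1r and C1s. The liver makes most complement protein of the blood, while C1q chains are made mainly by macrophages and related cells, and fibroblasts can make C1r, C1s, C3 and C4.

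The tissue labels were checked against markers. Tnmd, which codes for tenomodulin, a protein of tendon cells, was at 76.8 CPM or more in every library (CPM, counts scaled to library size with TMM factors). Summed skeletal muscle markers (12 genes) reached 123453 to 141592 CPM in Supraspinatus, 358.5 to 7737 in Patellar, 52238 to 81565 in Flexor and 34074 to 72258 in Achilles, so the labelled tendons held different amounts of muscle RNA. Hepatocyte markers (6 genes) summed to at most 10.6 CPM in any library. Total counts ran from 34559686 to 107805065 per library, with all 4 Patellar libraries at 63235636 or less and every other library at 84414005 or more. Genes with rRNA-like sequence took 13.2% to 42% of the counts in Patellar and 1.86% to 4.91% in the other tendons. The 9 genes had between 33 counts (C7 in a Supraspinatus library) and 149360 (Serping1). In bulk tissue, fewer cells of a type and less RNA per cell cannot be told apart.

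Patellar replicate 1 and Achilles replicate 3 each had the lowest level of its tendon for all 9 genes. These genes varied together within tendons (Pearson's r of 0.476 to 0.995 with tendon means removed), so their low levels are not independent signs. By Dixon's test, given below, neither library stood apart in any of the 9 genes. Achilles replicate 3 did so in summed muscle markers. Achilles replicate 3 had summed muscle markers of 72258 CPM, against 34074 to 38390 in the other Achilles libraries, and summed macrophage markers of 264.4 CPM, against 417.4 to 697 in the other Achilles libraries. Patellar replicate 1 had summed muscle markers of 7737 CPM, against 358.5 to 2666 in the other Patellar libraries, and summed macrophage markers of 326.6 CPM, against 432.3 to 699.5. The part of muscle RNA in these levels was not tested. Results that rest on these libraries are given below with and without them, a choice made after seeing the data. Leaving out the lowest values of a tested gene can narrow the spread, so adjusted p-values without both do not count as support.

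Of the 9 genes, 4 differed over the 4 tendons, namely C3, C4b, C7 and Serping1, in edgeR's quasi-likelihood test with Benjamini-Hochberg adjustment over all genes tested. Of all genes, 64.9% did so. The count was 3 of 9 without Achilles replicate 1 or 4, Flexor replicate 2 or 3, Patellar replicate 1 or 2, or Supraspinatus replicate 1, 2 or 3, and with genes required to have a mean CPM of 5. C3, C4b and C7 were lower in Supraspinatus than in at least a pair of the other tendons, C7 most of all. With a muscle marker covariate the differences of C3, C4b and C7 between Supraspinatus and Patellar reversed and did not pass. That covariate, a mean log2 CPM, ran from 12.5 to 12.8 in Supraspinatus and from 4.28 to 8.54 in Patellar. Without overlap, muscle content and tendon cannot be told apart there. C3, C4b and C7 remained lower in Supraspinatus than in Flexor with the covariate. In the main fit, which had no covariate, the C1q chains and C1ra and C1s1 passed in none of the 6 pairwise comparisons.

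The promoters printed here are those of genes that differed between tendons and had an entry (C3 and C7) and of neighbouring genes that varied together from library to library (C1qb and C1qc). They are 300 bases on the strand of the gene, as given by RefSeq for GRCm38.p6, and each covers the annotated start of its gene. The C1qc window lies mostly inside the gene, whose annotated start is 136893065. Of the 9 genes, 6 had an entry (C1qb, C1qc, C1ra, C1s1, C3 and C7). The C1ra window, 124512371 to 124512670, also lies mostly inside its gene, which starts at 124512405. Capitals mark matches, on either strand, to 5 short motifs: the TATA box TATAAA, the ETS core AGGAAG, the NF-kB element (GGGA, 4 bases of any kind, CC), the C/EBP element (TTGC, 2 bases of any kind, AA) and the interferon regulatory element (GAAA, 2 bases of any kind, GAAA).
C3, chr17:57228087-57228386, minus strand: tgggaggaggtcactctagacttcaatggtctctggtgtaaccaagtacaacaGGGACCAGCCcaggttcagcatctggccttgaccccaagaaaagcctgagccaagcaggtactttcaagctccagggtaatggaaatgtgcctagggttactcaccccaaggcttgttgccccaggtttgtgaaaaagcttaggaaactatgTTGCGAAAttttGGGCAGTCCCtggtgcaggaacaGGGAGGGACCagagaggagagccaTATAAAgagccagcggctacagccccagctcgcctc
C7, chr15:5063724-5064023, minus strand: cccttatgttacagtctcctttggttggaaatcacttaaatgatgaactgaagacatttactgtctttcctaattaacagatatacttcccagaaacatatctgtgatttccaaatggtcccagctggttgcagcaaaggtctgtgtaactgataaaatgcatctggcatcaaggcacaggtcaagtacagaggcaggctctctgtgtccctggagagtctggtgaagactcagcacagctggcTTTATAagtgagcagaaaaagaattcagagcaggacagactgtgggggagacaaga
C1qb, chr4:136886151-136886450, minus strand: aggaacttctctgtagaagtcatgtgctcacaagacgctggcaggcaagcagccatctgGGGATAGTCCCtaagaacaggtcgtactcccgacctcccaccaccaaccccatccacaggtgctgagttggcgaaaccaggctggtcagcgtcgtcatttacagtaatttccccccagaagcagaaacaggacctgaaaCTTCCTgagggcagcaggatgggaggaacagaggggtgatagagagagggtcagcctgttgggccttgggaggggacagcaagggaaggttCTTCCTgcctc
C1qc, chr4:136892865-136893164, minus strand: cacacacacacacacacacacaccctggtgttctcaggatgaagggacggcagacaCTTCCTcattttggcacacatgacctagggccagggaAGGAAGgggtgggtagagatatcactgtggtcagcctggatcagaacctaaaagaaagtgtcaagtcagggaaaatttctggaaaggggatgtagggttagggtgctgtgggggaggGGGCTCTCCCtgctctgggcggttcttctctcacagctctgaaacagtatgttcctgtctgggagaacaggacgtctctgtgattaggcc

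The C3 window held a TATA box, 3 NF-kB matches and a C/EBP match, and the C7 window held a TATA box read on the opposite strand and none of the other 4 motifs. C1qb held 2 ETS cores and 2 overlapping NF-kB matches at bases 60 to 69 and 61 to 70, counted from 1 at the printed 5′ end. C1qc held 2 ETS cores and 1 NF-kB match. Among 27025 promoters of the same length, 14.2% held the TATA box, 35.1% the ETS core, 20.5% the NF-kB element, 10.8% the C/EBP element and 3.49% the interferon regulatory element. No window of the 6 held the interferon regulatory element. A match describes letters only.

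**Figure D1:**
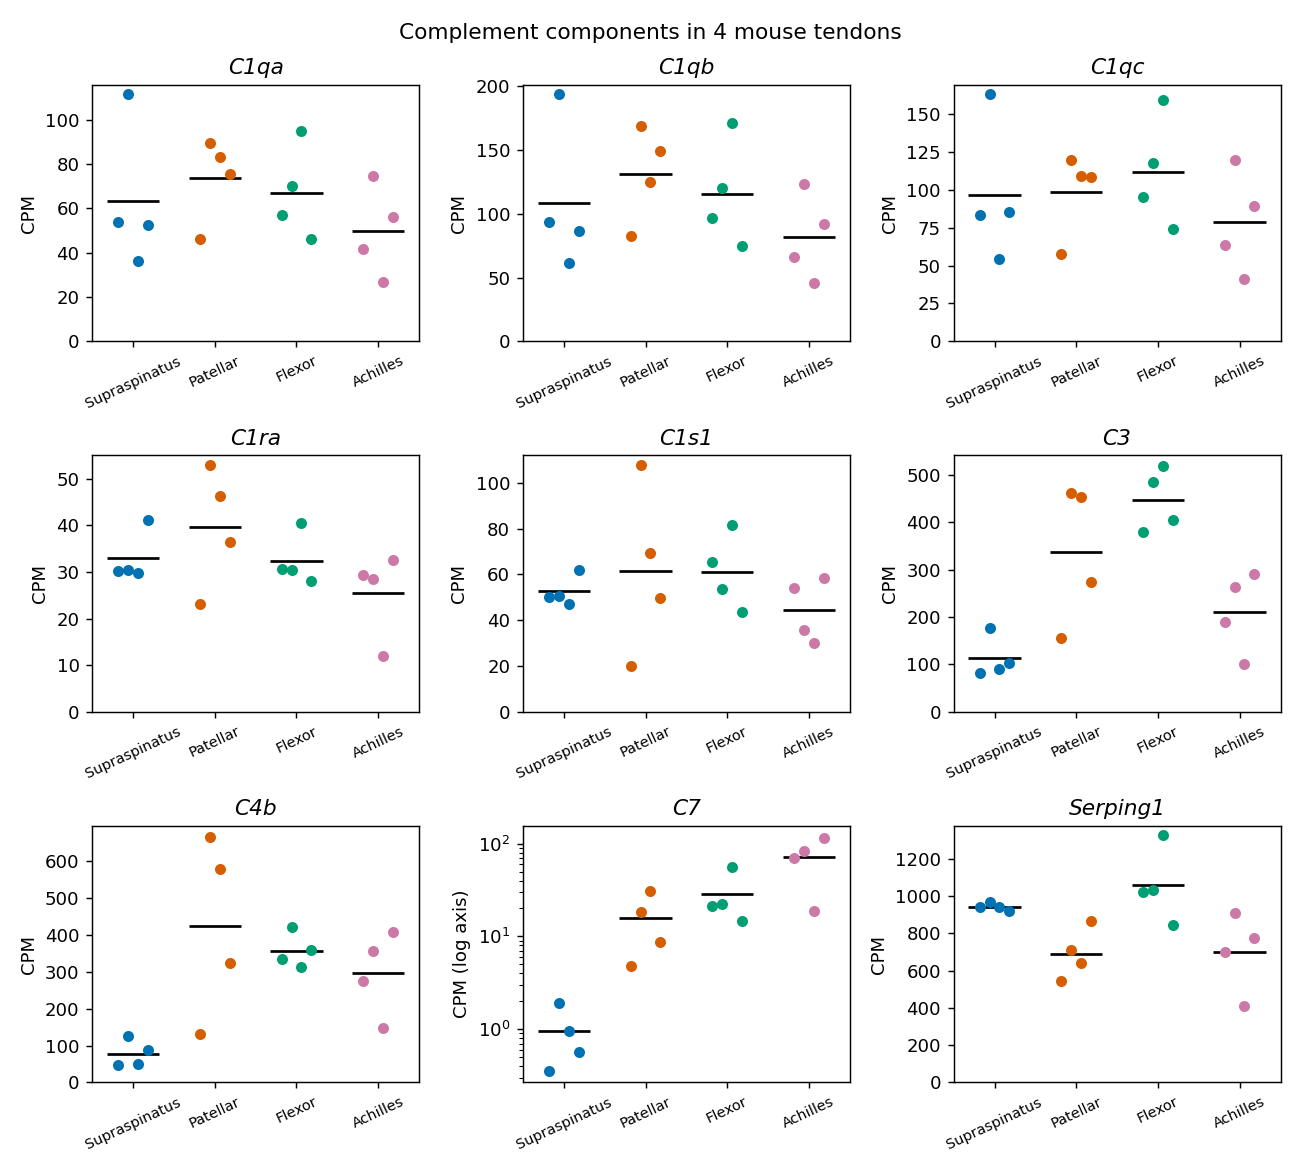
Level of each of the 9 complement genes in CPM, with C7 on a log axis, in 4 libraries per tendon (points) with the mean (bar). C7 lies between 0.357 and 1.91 CPM in Supraspinatus and at 4.78 CPM or more in every other library, while the C1q chains overlap in all 4 tendons.

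The C1q chain genes lie side by side on chromosome 4 of GRCm38 (mm10), all on the minus strand. C1qb spans 136880129 to 136886187, C1qc 136889804 to 136893065 and C1qa 136895917 to 136898803, with 3616 and 2851 bases between neighbours. C1qa was at 53.7, 111, 36.2 and 52.5 CPM in Supraspinatus, 46.2, 89.3, 83.4 and 75.6 in Patellar, 56.8, 70.1, 94.96 and 46.4 in Flexor, and 41.7, 74.4, 26.9 and 56.0 in Achilles. Every tendon overlapped with every other, and the highest library, a Supraspinatus one, stood beside a low one of the same tendon. Across the 16 libraries C1qb ran from 45.9 to 193.5 CPM and C1qc from 41.1 to 163 CPM.

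No C1q chain passed in any pair. The largest of their 18 differences was C1qb in Patellar minus Achilles, at 0.69 ± 0.36 on the log2 scale (edgeR with Benjamini-Hochberg adjusted p = 0.15, approximate 95% interval -0.03 to 1.40). The same interval for C1qa in that pair ran from -0.12 to 1.25, and for C1qc in Flexor minus Achilles from -0.19 to 1.21, so differences of either direction up to these bounds were not excluded.

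Per kilobase of exon, C1qb was the highest chain and C1qc the lowest of the 3 in every tendon. The place of C1qc rests on its merged exon length of 1931 bases, against 1040 for C1qa and 1088 for C1qb. In CPM not divided by length, C1qc was above C1qa in every tendon, at 111.6 against 67.1 in Flexor and 78.5 against 49.7 in Achilles. C1qb averaged 99.9 ± 53.6 CPM per kb in Supraspinatus, 121 ± 34.1 in Patellar, 106 ± 38.1 in Flexor and 75.1 ± 30.6 in Achilles (SD, n = 4 each). The ratio of C1qb to C1qa per kb stayed between 1.43 and 1.89 in the 16 libraries, and that of C1qc to C1qa between 0.674 and 0.905. Over the 16 libraries, Pearson's r of log2 CPM was 0.987 between C1qa and C1qb and 0.972 between C1qa and C1qc. With tendon means removed it was 0.986 and 0.995 for the same pairs, a description of libraries that share depth and cell mixture.

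Libraries high in C1q chains were high in macrophage markers. The summed level of 15 macrophage markers was 320.1 to 741.6 CPM in Supraspinatus, 326.6 to 699.5 in Patellar, 428.8 to 868.2 in Flexor and 264.4 to 697 in Achilles. Csf1r, the growth factor receptor that defines the lineage, averaged 84.4 ± 27.0 CPM in Supraspinatus, 85.8 ± 30.4 in Patellar, 146.8 ± 35.4 in Flexor and 115 ± 50.5 in Achilles (SD, n = 4 each), and none of the first 4 defining markers was at 0 in any library. The list did not move as one. Over the 4 tendons 5 of the 15 differed, where 64.9% of all genes did (edgeR with Benjamini-Hochberg adjustment), namely Lyve1, Cx3cr1, Mertk, Aif1 and Ms4a7. In Supraspinatus against Achilles, Cx3cr1 was 27.1-fold, Aif1 5.1-fold and Mertk 3.06-fold lower, while Lyve1 was 2.46-fold higher (adjusted p from 1.61e-06 to 0.0217). Aif1 and Ms4a7 were higher in Patellar than in Flexor and Achilles and lower in Supraspinatus than in Patellar. The summed C1q level divided by the summed macrophage level was 0.531 ± 0.0696 in Supraspinatus, 0.617 ± 0.104 in Patellar, 0.467 ± 0.0179 in Flexor and 0.427 ± 0.0209 in Achilles, with a range from 0.411 to 0.771 over the 16 libraries. The part of macrophage content in the C1q levels was not tested.

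**Figure D2:**
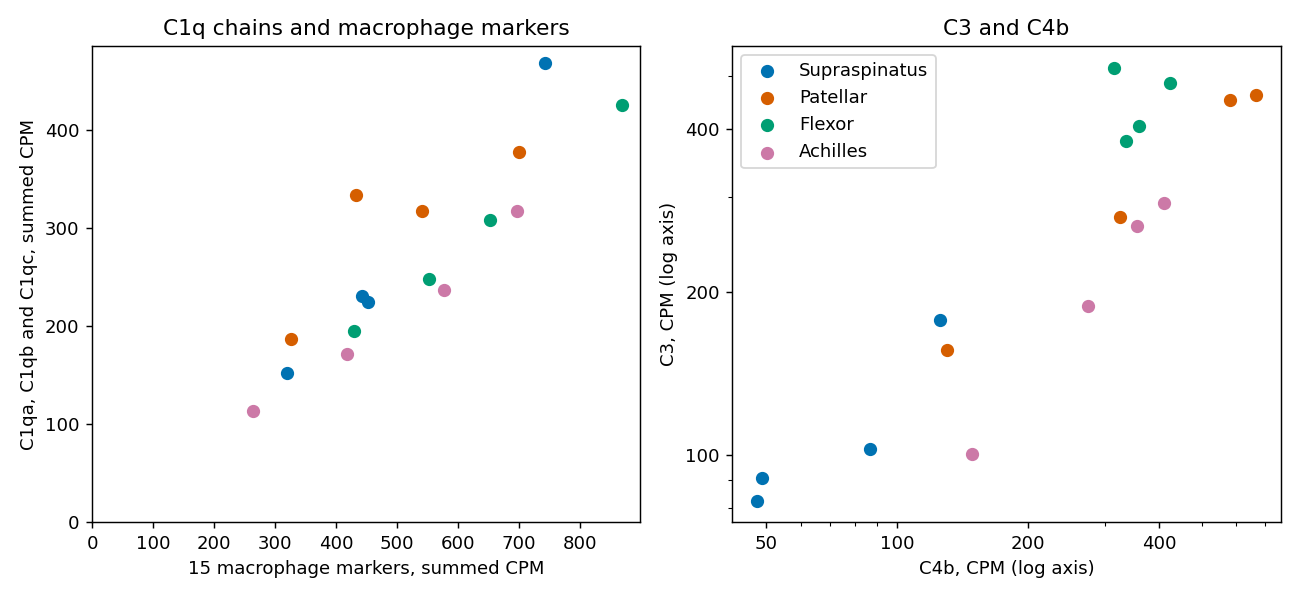
Each point is 1 of 16 libraries, coloured by tendon. The left panel sets summed C1q chains against summed macrophage markers in CPM, and the right panel sets C3 against C4b in CPM on log axes, where the 4 Supraspinatus libraries lie at the low end of C4b.

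C1ra and C1s1, the genes of the proteases C1r and C1s, are neighbours on chromosome 6 with opposite strands (C1ra 124512405 to 124523443, plus strand, and C1s1 124530345 to 124542359, minus strand), 6901 bases apart. C1ra was at 30.3, 30.4, 29.7 and 41.3 CPM in Supraspinatus, 23.3, 53.0, 46.2 and 36.5 in Patellar, 30.7, 30.4, 40.6 and 28.1 in Flexor, and 29.3, 28.5, 12.1 and 32.5 in Achilles. The Achilles library at 12.1 was replicate 3, and all tendons overlapped. C1s1 ranged from 20.1 to 108 CPM, both ends being Patellar libraries.

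Neither protease gene passed in any pair of the main fit. C1ra in Patellar minus Achilles came nearest, at 0.64 ± 0.27 on the log2 scale (edgeR with Benjamini-Hochberg adjusted p = 0.0789, approximate 95% interval 0.10 to 1.17). With all 16 libraries and genes required to have a mean CPM of 5, it passed (0.74, adjusted p = 0.0334). Without Achilles replicate 3 and Patellar replicate 1, each the lowest of its tendon in C1ra, the same difference was 0.59 ± 0.175 (adjusted p = 0.0202). In that fit C1ra was also higher in Patellar than in Flexor by 0.48 (adjusted p = 0.0244) and lower in Supraspinatus than in Patellar, at -0.46 (adjusted p = 0.0289). Without Patellar replicate 1 alone, C1ra, C1s1 and C3 also passed in Patellar minus Achilles, at 0.79, 0.73 and 0.88, with adjusted p-values of 0.025, 0.0451 and 0.0449.

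The near copies of these genes, C1rb and C1s2, peaked at mean levels of 1.59 and 0.568 CPM and C4a, the near copy of C4b, at 1.67 CPM. Reads between such copies can be split by the counting, so these levels are uncertain. A predicted antisense gene, Gm16567, overlaps C1s1, and the sources used here do not give whether the counting used strand.

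C3, the central component (chromosome 17, 57203970 to 57228136), was at 82.5, 178, 90.9 and 103 CPM in Supraspinatus, 156, 462, 453 and 275 in Patellar, 379, 486, 519 and 405 in Flexor, and 189, 264, 100.5 and 291 in Achilles. All 4 Flexor libraries lay above all Supraspinatus and all Achilles libraries, while Supraspinatus overlapped with Patellar and Achilles. C3 was lower in Supraspinatus than in Flexor (log2 fold change -1.98 ± 0.36, edgeR with Benjamini-Hochberg adjusted p = 0.000685) and lower than in Patellar (-1.57 ± 0.36, adjusted p = 0.00169). In Supraspinatus minus Flexor, 3 of the 9 genes passed, all lower (C3, C4b and C7), where 27.1% of all genes passed and 12.4% were lower. In Supraspinatus minus Patellar the same 3 were lower, where 53.3% of all genes passed and 26.8% were lower.

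C3 was higher in Flexor than in Achilles by 1.08 ± 0.36 (adjusted p = 0.0483), the only 1 of the 9 genes to pass there, where 16.2% of all genes passed and 6.5% were higher. That call was lost in 12 of the 16 fits with 1 library left out, namely any Achilles or Flexor library, Patellar replicate 2, or Supraspinatus replicates 1, 3 or 4, with adjusted p from 0.0506 to 0.128, and with the rRNA-like genes left out it had adjusted p = 0.0566. C3 in Supraspinatus minus Achilles did not pass (-0.90 ± 0.35, adjusted p = 0.0624). Without Achilles replicate 3 and Patellar replicate 1, each the lowest of its tendon in C3, it passed (-1.13, adjusted p = 0.00398). It also passed without Achilles replicate 3, Patellar replicate 1, Patellar replicate 3 or Supraspinatus replicate 2 alone, with adjusted p of 0.0172, 0.0292, 0.0489 and 0.0246, with DESeq2 (adjusted p = 0.0369), with genes required to have a mean CPM of 5 (adjusted p = 0.0314) and with a replicate block (adjusted p = 0.0363). With the muscle marker covariate described below it was 0.037 (adjusted p = 0.956).

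C4b, which codes for C4, is also on chromosome 17 (34728380 to 34743882, minus strand), 65209 bases from C4a. It was at 47.7, 125, 48.8 and 86.8 CPM in Supraspinatus, 130.4, 666, 580.2 and 325 in Patellar, 335, 422, 314 and 359.5 in Flexor, and 274, 356, 148 and 409 in Achilles. All 4 Supraspinatus libraries lay below every other library, and the Patellar libraries spread most widely. C4b was lower in Supraspinatus than in Achilles (-1.95 ± 0.44, edgeR with Benjamini-Hochberg adjusted p = 0.00304), than in Flexor (-2.21 ± 0.44, adjusted p = 0.00138) and than in Patellar (-2.46 ± 0.45, adjusted p = 0.000254). With C7, it made 2 of 9 genes lower in Supraspinatus than in Achilles, where 33.6% of all genes passed and 16.7% were lower.

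Per kilobase, C3 averaged 22.1 ± 8.48 CPM per kb in Supraspinatus, 65.4 ± 28.8 in Patellar, 87.0 ± 12.8 in Flexor and 41.1 ± 16.7 in Achilles (SD, n = 4 each). C4b averaged 13.5 ± 6.46, 74.7 ± 42.9, 62.8 ± 8.22 and 52.1 ± 19.9 CPM per kb in the same tendons. The ratio of C3 to C4b per kb was 1.71 ± 0.338 in Supraspinatus, 0.975 ± 0.245 in Patellar, 1.40 ± 0.285 in Flexor and 0.781 ± 0.0324 in Achilles, where all 4 values lay between 0.75 and 0.823. Across the 16 libraries, r of log2 CPM was 0.912 between C3 and C4b, and 0.94 with tendon means removed.

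C7, a component of the membrane attack complex (chromosome 15, 4988762 to 5063740, minus strand), spanned the widest range of the 9 genes as a ratio of highest to lowest library, though not in CPM. It was at 0.357, 1.91, 0.953 and 0.569 CPM in Supraspinatus, 4.78, 18.4, 31.0 and 8.61 in Patellar, 21.5, 22.2, 56.5 and 14.6 in Flexor, and 70.0, 82.9, 18.7 and 116 in Achilles. All 4 Supraspinatus libraries lay below all others, and the Achilles library at 18.7 was replicate 3. The level per kb was 0.354 ± 0.257 CPM in Supraspinatus, 5.86 ± 4.37 in Patellar, 10.7 ± 7.05 in Flexor and 26.9 ± 15.1 in Achilles (SD, n = 4 each).

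C7 was 76.5-fold lower in Supraspinatus than in Achilles (-6.26 ± 0.78 on the log2 scale, edgeR with Benjamini-Hochberg adjusted p = 2.34e-05), 30.5-fold lower than in Flexor (-4.93 ± 0.74, adjusted p = 0.000111) and 16.7-fold lower than in Patellar (-4.06 ± 0.72, adjusted p = 0.000196). Leaving out any 1 library moved the first of these between -6.84 and -5.92. C7 was also lower in Patellar than in Achilles (-2.20 ± 0.64, adjusted p = 0.0129), the only 1 of the 9 genes to pass there, where 38.4% of all genes passed and 21.1% were lower. The groups overlapped through Achilles replicate 3. Flexor and Achilles did not differ past the threshold (-1.33 ± 0.62, adjusted p = 0.166). They did so without Achilles replicate 3 and Patellar replicate 1, each the lowest of its tendon in C7 (-1.64, adjusted p = 0.0434). The ratio of C7 to C3 per kb averaged 0.0149 in Supraspinatus, 0.0817 in Patellar, 0.119 in Flexor and 0.61 in Achilles.

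**Figure D3:**
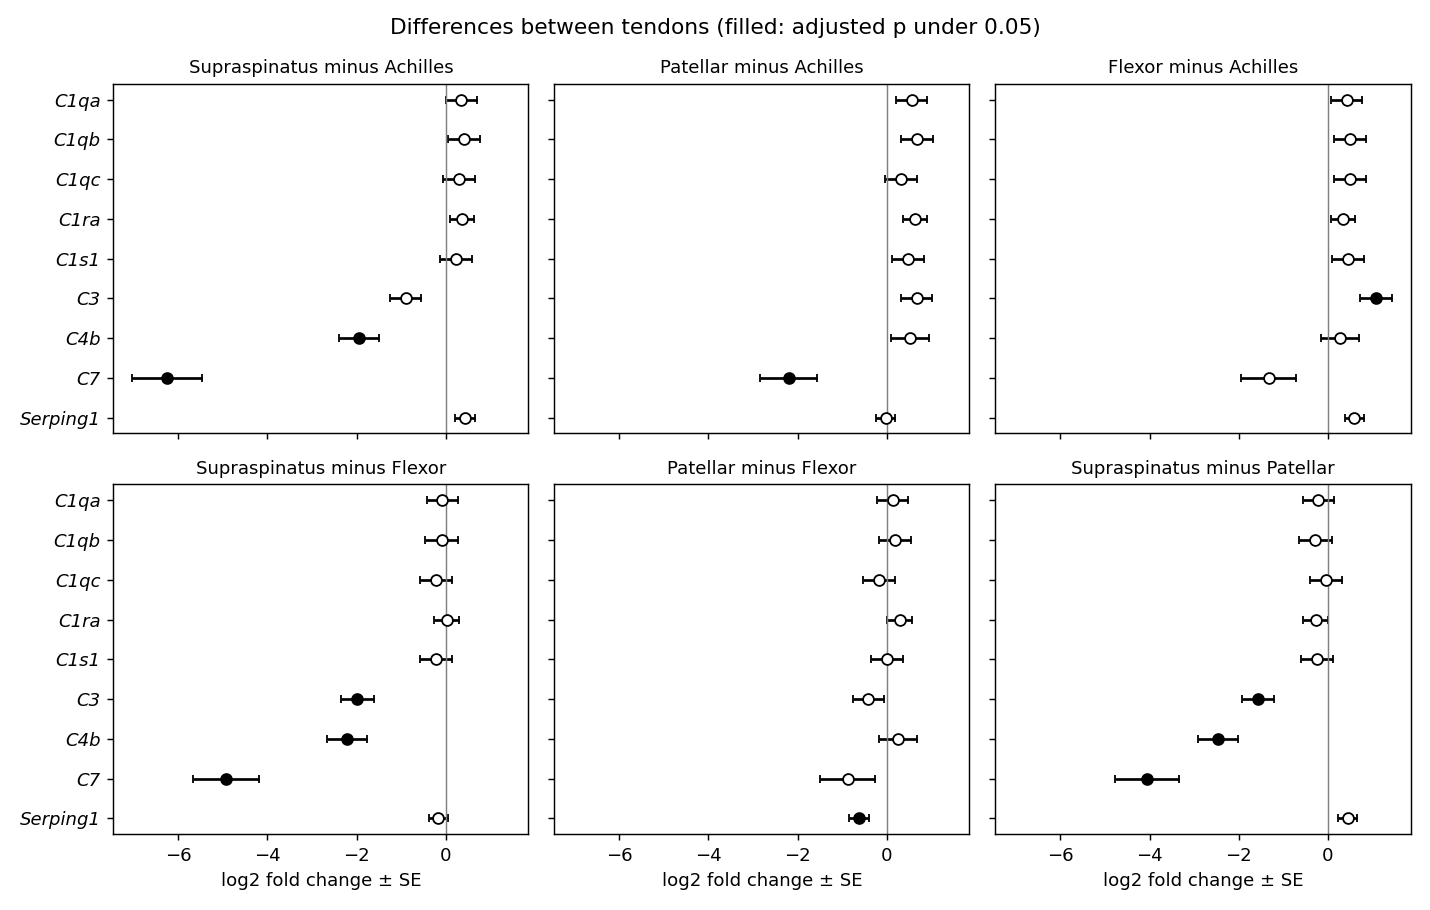
Log2 fold change with its standard error for each of the 9 genes in the 6 pairs of tendons, filled where the adjusted p is under 0.05. Of 54 differences 11 are filled, 8 of them C3, C4b or C7 lower in Supraspinatus. Of all genes tested, 16.2% (Flexor minus Achilles) to 53.3% (Supraspinatus minus Patellar) passed in a pair.

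Serping1, which codes for C1 inhibitor (chromosome 2, 84765387 to 84775444, minus strand), was the most abundant of the 9 genes per length in every tendon. It was at 943, 969.5, 944 and 923 CPM in Supraspinatus, 543, 711, 641.5 and 865 in Patellar, 1024, 1035, 1332 and 846.5 in Flexor, and 698, 911.5, 409 and 778 in Achilles. The Supraspinatus libraries differed little among themselves and lay above every Patellar and every Achilles library. Serping1 averaged 406 ± 8.25 CPM per kb in Supraspinatus, 297 ± 58.2 in Patellar, 456 ± 86.6 in Flexor and 301 ± 91.4 in Achilles (SD, n = 4 each).

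Serping1 was lower in Patellar than in Flexor (-0.62 ± 0.22, edgeR with Benjamini-Hochberg adjusted p = 0.026), with overlapping libraries. It was the only 1 of the 9 genes to pass there, where 50.3% of all genes passed and 26.2% were lower. Without Flexor replicate 3, Patellar replicate 1 or Patellar replicate 2 the adjusted p was 0.0866, 0.0517 and 0.0522, and with genes required to have a mean CPM of 5 it was 0.0976. With the muscle marker covariate described below it was 0.157, at -1.11. Supraspinatus minus Achilles (0.43 ± 0.22, adjusted p = 0.135), Supraspinatus minus Patellar (0.45 ± 0.22, adjusted p = 0.0895) and Flexor minus Achilles (0.60 ± 0.22, adjusted p = 0.0715) did not pass, although libraries did not overlap in the first 2. Supraspinatus minus Patellar passed without Achilles replicate 3 (adjusted p = 0.0256) and without Patellar replicate 4 (adjusted p = 0.0436). It also passed with every library kept and no filter on low counts (adjusted p = 0.046). Flexor minus Achilles passed without Achilles replicate 2 (adjusted p = 0.0449). With every library kept, it passed with DESeq2 (adjusted p = 0.0373) and with voom (adjusted p = 0.0381).

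C3, C4b and C7 had their lowest means in Supraspinatus, where skeletal muscle markers were highest. The mean log2 CPM of those markers ran from 12.5 to 12.8 in Supraspinatus and 4.28 to 8.54 in Patellar. It ran from 11.4 to 12.2 in Flexor and 10.1 to 11.3 in Achilles. These ranges did not overlap. Summed muscle CPM did overlap between Flexor (52238 to 81565) and Achilles (34074 to 72258), through Achilles replicate 3. By the mean log2 CPM, muscle content and tendon cannot be told apart. With that mean as a covariate, Supraspinatus minus Patellar turned to 1.19 for C3 (adjusted p = 0.315), 1.35 for C4b (adjusted p = 0.311) and 0.30 for C7 (adjusted p = 0.922). C4b in Supraspinatus minus Achilles was no longer past the threshold (-0.69, adjusted p = 0.243). Serping1 in Patellar minus Flexor also lost its call. Other calls were gained. C1s1 passed in no pair of the main fit, and without Patellar replicate 1 it passed in Patellar minus Achilles, at 0.73. With the covariate it passed in 5 of 6 pairs. It was lower in Patellar than in Achilles (-1.84, adjusted p = 0.018) and in Flexor (-2.96, adjusted p = 0.00513), and higher in Supraspinatus than in Achilles (1.33, adjusted p = 0.00635), in Flexor than in Achilles (1.13, adjusted p = 0.00847) and in Supraspinatus than in Patellar (3.16, adjusted p = 0.00909). C1ra was higher in Supraspinatus than in Achilles (1.08, adjusted p = 0.0136) and in Flexor than in Achilles (0.79, adjusted p = 0.0363). C4b was lower in Patellar than in Achilles (-2.04, adjusted p = 0.0375) and in Flexor (-3.08, adjusted p = 0.0173), and higher in Flexor than in Achilles (1.04, adjusted p = 0.0497). C3 and C7 were lower in Patellar than in Flexor (-2.80 and -4.68, adjusted p = 0.0149 and 0.0489). C3, C4b and C7 remained lower in Supraspinatus than in Flexor, at -1.62, -1.74 and -4.37 (adjusted p = 0.000585, 0.000752 and 0.000113), as did C7 in Supraspinatus minus Achilles (-4.78, adjusted p = 0.000682) and in Patellar minus Achilles (-5.09, adjusted p = 0.0142).

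Other marker lists differed between tendons as well. Summed mast cell markers (5 genes) were 3.09 to 7.78 CPM in Supraspinatus and 24.2 to 45.2 in Patellar. They were 15.8 to 44.7 in Flexor and 13.6 to 35.5 in Achilles. In the same order of tendons, endothelial markers (6 genes) summed to 281.5 to 313.5, 132.5 to 457.7, 335 to 482 and 520.1 to 694.2 CPM. Pericyte and smooth muscle markers (6 genes) summed to 550.7 to 708.4, 352.3 to 769.8, 1752 to 3293 and 790.6 to 3938 CPM. Summed fibroblast markers (12 genes) were 12841 to 35406 CPM in Supraspinatus, 34840 to 63055 in Patellar, 23467 to 27369 in Flexor and 11492 to 32344 in Achilles. Summed Schwann cell markers (5 genes) were 18.98 to 24.79 CPM in Supraspinatus, 80.28 to 211.2 in Patellar, 621.8 to 2349 in Flexor and 249.8 to 3236 in Achilles. Summed interferon-induced genes (10 genes) were 52.02 to 105.4 CPM in Supraspinatus, 102.9 to 187.8 in Patellar, 61.97 to 89.89 in Flexor and 88.52 to 119.2 in Achilles. The part of these lists in the complement levels was not tested.

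A further 43 complement genes were listed by role, 41 were in the table, 36 were tested, and the 20 with a mean of at least 5 CPM in a tendon are named. Of the 36, 25 differed over the 4 tendons, where 64.9% of all genes did. By pair, 6 rose and 11 fell in Supraspinatus against Achilles, 2 and 9 in Patellar against Achilles, 6 and 2 in Flexor against Achilles, 2 and 8 in Supraspinatus against Flexor, 7 and 13 in Patellar against Flexor, and 6 and 6 in Supraspinatus against Patellar. Of all genes tested, 16.9% were higher and 16.7% lower in the first of these pairs, 17.4% and 21.1% in the second, 6.5% and 9.72% in the third, 14.7% and 12.4% in the fourth, 24.2% and 26.2% in the fifth, and 26.4% and 26.8% in the sixth. The median log2 fold changes of the 36 in those pairs were -0.23, -0.25, -0.04, -0.42, -0.46 and 0.17, beside -0.04, -0.01, 0.00, -0.07, -0.01 and -0.08 over all genes.

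Of the 11 genes that start the classical and lectin pathways, 7 differed over the tendons, beside 64.9% of all genes. C2, the protease that joins C4b in the enzyme that cleaves C3, averaged 0.626 ± 0.101 CPM in Supraspinatus, 13.8 ± 6.25 in Patellar, 7.76 ± 1.36 in Flexor and 8.22 ± 3.12 in Achilles (SD, n = 4 each). Supraspinatus was lower than Patellar (-4.46 ± 0.36, edgeR with Benjamini-Hochberg adjusted p = 1.15e-07), than Flexor (-3.63 ± 0.35, adjusted p = 1.19e-06) and than Achilles (-3.71 ± 0.35, adjusted p = 2.29e-06), without overlap. Masp1, a lectin pathway protease, averaged 12.5 ± 1.39 CPM in Supraspinatus, 2.83 ± 1.04 in Patellar, 45.9 ± 5.49 in Flexor and 13.7 ± 1.35 in Achilles, and only Supraspinatus minus Achilles did not pass (adjusted p = 0.675). Masp1 was lower in Patellar than in Flexor (-4.02 ± 0.23, adjusted p = 1.09e-08) and Achilles (-2.26 ± 0.21, adjusted p = 2.47e-06), higher in Supraspinatus than in Patellar (2.14 ± 0.21, adjusted p = 7.38e-07), lower in Supraspinatus than in Flexor (-1.87 ± 0.20, adjusted p = 4.58e-06) and higher in Flexor than in Achilles (1.75 ± 0.20, adjusted p = 4.72e-05). Colec10, a soluble collectin, averaged 16.9 ± 9.97, 0.513 ± 0.552, 7.31 ± 4.19 and 0.212 ± 0.157 CPM in the same tendons. Both forelimb tendons were higher than both hindlimb tendons (adjusted p from 2.75e-05 to 0.000487). Colec12, a membrane collectin, was lower in Supraspinatus and in Patellar than in Flexor, C1rl was higher in Patellar than in Flexor, and Fcna, a ficolin, passed in no pair.

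All 3 alternative pathway genes tested differed over the tendons, beside 64.9% of all genes. Cfd, which codes for factor D or adipsin, a protease that fat cells make, averaged 393.8 ± 404 CPM in Supraspinatus, 7350 ± 3098 in Patellar, 361 ± 99.9 in Flexor and 2962 ± 1047 in Achilles (SD, n = 4 each). It was higher in Patellar than in Flexor (4.35 ± 0.63, edgeR with Benjamini-Hochberg adjusted p = 3.66e-05), lower in Supraspinatus than in Patellar (adjusted p = 3.8e-05) and lower in Supraspinatus and Flexor than in Achilles (adjusted p = 0.00138 and 0.0025), and Patellar minus Achilles did not pass (adjusted p = 0.0751). Summed adipocyte markers (7 genes) were at 467.1 to 1136 CPM in Supraspinatus, 3591 to 7767 in Patellar, 490.6 to 781.1 in Flexor and 2604 to 5490 in Achilles, and their part was not tested. Cfp, properdin, averaged 29.9 ± 15.1 CPM in Patellar and 8.45 ± 2.99 in Achilles, and was higher in Patellar than in Achilles and Flexor (edgeR with Benjamini-Hochberg adjusted p = 0.00375 and 0.00379) and lower in Supraspinatus than in Patellar (adjusted p = 0.01). The other terminal components were scarce, Hc (C5) and C8b being untested and C6, C8g and C9 having mean levels of at most 3.73 CPM in any tendon.

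Regulators differed in 10 of 11 genes, beside 64.9% of all genes. Cd55, which speeds the decay of the convertases, averaged 186.5 ± 48.7 CPM in Supraspinatus, 59.3 ± 7.15 in Patellar, 194 ± 28.7 in Flexor and 56.4 ± 9.83 in Achilles (SD, n = 4 each). Both forelimb tendons were higher than both hindlimb tendons without overlap (edgeR with Benjamini-Hochberg adjusted p from 1.97e-06 to 1.41e-05). Clu, clusterin, averaged 1011 ± 176 CPM in Supraspinatus, 876 ± 292 in Patellar, 3298 ± 1275 in Flexor and 3759 ± 1495 in Achilles. It was lower in Supraspinatus and Patellar than in Flexor and Achilles (adjusted p from 0.00016 to 0.001). C1qbp, a mitochondrial protein named for binding C1q, averaged 61.4 ± 4.90 CPM in Supraspinatus, 30.9 ± 4.47 in Patellar, 19.3 ± 4.34 in Flexor and 37.3 ± 3.03 in Achilles, and passed in every pair but Patellar minus Achilles (adjusted p from 6.03e-07 to 0.00144), with Supraspinatus highest and Flexor lowest. Vtn, vitronectin, was lower in Patellar than in Flexor and Achilles and lower in Supraspinatus than in Achilles. The membrane inhibitors Cd59a and Cr1l were lower in Patellar than in Flexor. Cd59a was also lower in Patellar than in Achilles and in Supraspinatus than in Flexor, and Cr1l was higher in Supraspinatus than in Patellar.

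Of 8 receptors, 4 differed over the tendons, beside 64.9% of all genes. Vsig4, a receptor of tissue macrophages for C3 fragments, averaged 14.4 ± 6.64 CPM in Supraspinatus, 2.62 ± 1.78 in Patellar, 14.0 ± 5.69 in Flexor and 19.5 ± 10.6 in Achilles, and was lower in Patellar than in Flexor and Achilles (edgeR with Benjamini-Hochberg adjusted p = 0.011 and 0.00563) and higher in Supraspinatus than in Patellar (adjusted p = 0.00939). C5ar1, a receptor for the C5a fragment, was higher in Supraspinatus and in Flexor than in Achilles, and Cd93 was lower in Supraspinatus and Patellar than in Achilles. Itgb2 was lower in Patellar than in Flexor, and C3ar1 and Itgam passed in no pair.

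**Figure D4:**
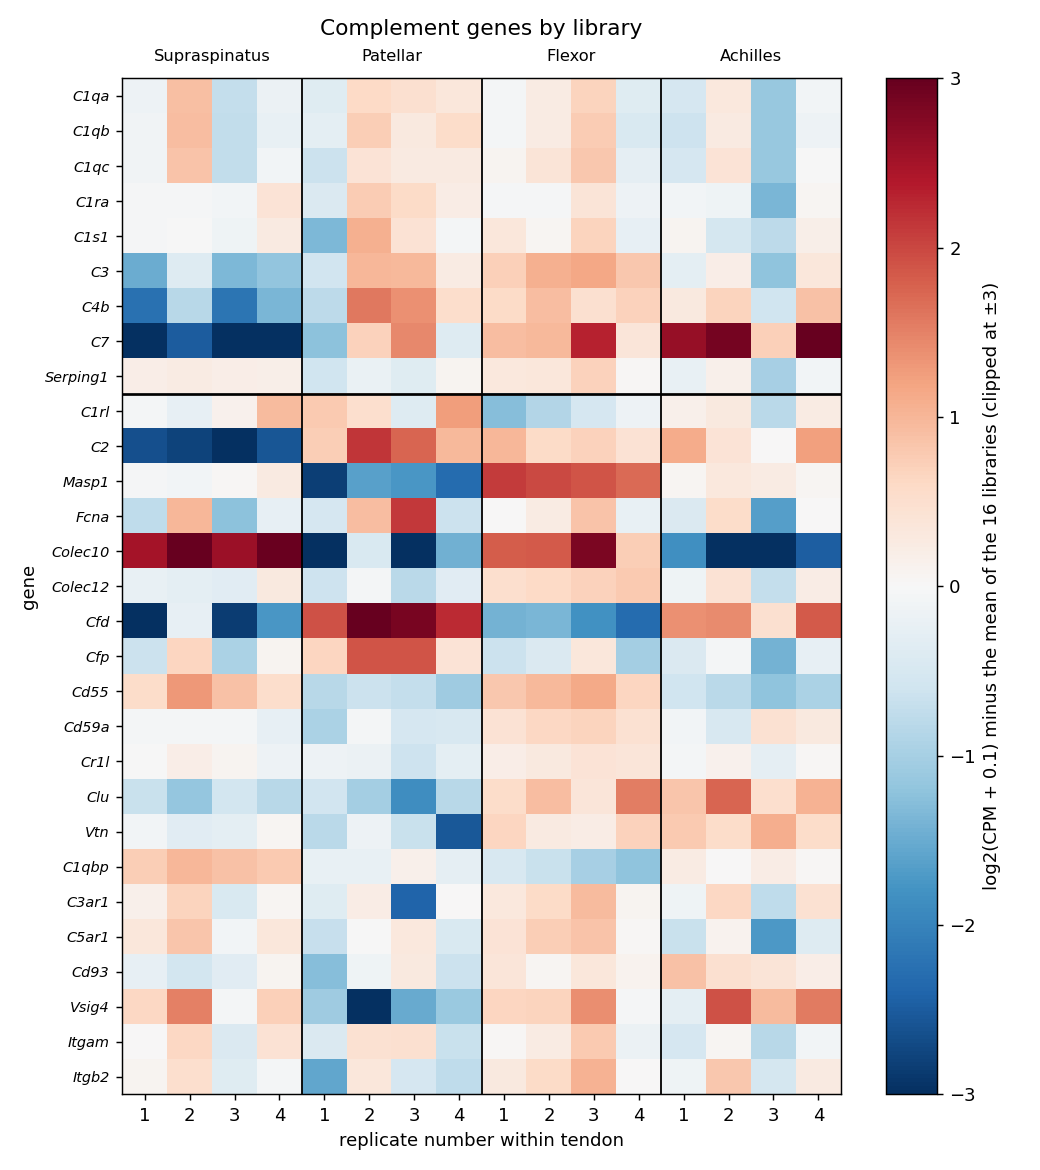
Log2 of CPM plus 0.1, minus the mean of the 16 libraries and limited to 3 in either direction, for the 9 genes (above the line) and 20 other complement genes. Columns are libraries by tendon. C7 and C2 are low in all 4 Supraspinatus libraries and Cd55 is high in both forelimb tendons.

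The genes whose log2 CPM followed each of the 9 most closely over the 16 libraries were sought among 10817 tested genes. These had a mean of at least 5 CPM over all 16 libraries. Genes with Gm or Rik names or a dot in the name were left out. C1qa was followed most closely by Ncf1 (Pearson's r = 0.929), Mrc1 (0.921) and Fcgr3 (0.908). C1qb was followed by Fcgr3 (0.91), Ncf1 (0.905) and Tyrobp (0.902), and C1qc by Nckap1l (0.952), Mrc1 (0.934) and Ncf1 (0.914). C1ra was followed by Pirb (0.884), Nadk (0.867) and Syk (0.856), and C1s1 by Ms4a4d (0.944), Il1rl2 (0.877) and Ctsc (0.862). C3 was followed by Efemp1 (0.949), Olfml1 (0.92) and Bmper (0.918), and C4b by Ntrk2 (0.929) and Pde1a (0.924). C7 was followed by Cp (0.952), which codes for ceruloplasmin, Adcyap1r1 (0.941) and Selp (0.933), and Serping1 by Washc4 (0.893), Rnase4 (0.882) and Slc25a24 (0.88). The median r over all 10817 genes lay between -0.14 and 0.143 for the 9 genes.

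In the authors' deposited table, all 9 genes were listed among 13452. Of the 54 differences, 10 were called both there and here, 2 there only, 1 here only and 41 in neither. Those called there only were C3 in Supraspinatus against Achilles (FDR of 0.0357 in the authors' deposited table) and C1ra in Patellar against Achilles (FDR of 0.0379 in the authors' deposited table). The difference called here only was Serping1 in Patellar against Flexor, with an FDR of 0.0705 in the authors' deposited table. The number of genes was unlike, 13452 listed there and 23754 tested here. With a mean CPM of 5 required here (11298 genes), the C3 and C1ra differences passed in edgeR (adjusted p = 0.0314 and 0.0334). The Serping1 difference did not (adjusted p = 0.0976).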

How the data were processed

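As deposited by the authors, the gene table gives unnormalized whole read counts of 41204 genes, with 1 column for each of 16 libraries. The submitters' processing notes name FastQC, HISAT2 and edgeR and the build mm10. How reads were counted, with which strand setting and annotation and with which versions, the sources used here do not give. A second table deposited by the authors holds their log2 fold changes and FDR p-values for 13452 genes. It is quoted only beside values computed here, with the sign turned to match.

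The counts entered edgeR 4.0.16 (R 4.3.3). After filterByExpr, grouped by tendon, 23754 genes were left. TMM scaling and a robust quasi-likelihood fit of the 16 libraries followed, with tendon as the only term. Tests of the 4 tendons jointly and of the 6 pairs were 2-sided. Each was adjusted by Benjamini-Hochberg over every gene tested, at a threshold of 0.05. A standard error is the size of the log2 fold change over the root of its F statistic, and the approximate 95% intervals are normal. CPM are TMM-scaled and, per kb, divided by merged exon length in GENCODE for GRCm38, which is mm10. Correlations used log2 CPM at a prior count of 2. The fit was tested on simulated data. No 2 libraries held identical values, and the highest r of any pair was 0.9888.

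The 9 genes and all lists were chosen with earlier results of these data known. Named genes are the 9, the 20 other complement genes reaching a mean of 5 CPM in a tendon, and for each of the 9 the 3 genes most like it, with up to 4 defining markers for a marker list. Some genes that these rules name are not reported here and were left out of the counts of listed genes. Alternatives were median-ratio size factors, the filter dropped or raised to a mean of 5 CPM, DESeq2 1.42.0, voom in limma 3.58.1, a block for mouse number, a muscle marker covariate, removal of rRNA-like genes, fits of only the 8 libraries compared, and removal of single libraries. Removing Achilles replicate 3 together with Patellar replicate 1 was decided after seeing the data. Figures used matplotlib 3.10.9 with Python 3.11.15.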

Additional observations from a re-analysis of the deposited data

Results flagged for a closer look

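Among 168 groups of 4 libraries, 9 held a library far from the other 3 by Dixon's test at its 95% critical value, and chance alone gives about 1 in 20 groups. Of the complement genes, C1ra was at 41.3 CPM in Supraspinatus replicate 4, against 29.7, 30.3 and 30.4 in the other Supraspinatus libraries. In the same library Colec12 was at 151 CPM, against 98, 101 and 105, and Cd59a at 45.6 CPM, against 51.3, 51.8 and 51.8. C1qbp was at 37.6 CPM in Patellar replicate 3, against 28.1, 29 and 29.

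Among summed markers, skeletal muscle reached 72258 CPM in Achilles replicate 3, against 34074, 37497 and 38390 in the other Achilles libraries. That library also had the lowest level of its tendon for all 9 complement genes. Supraspinatus replicate 2 stood apart in mast cell markers, at 7.78 CPM against 3.09, 3.51 and 3.83, and in adipocyte markers, at 1136 CPM against 467, 534 and 572. Endothelial markers were at 694 CPM in Achilles replicate 1, against 520, 521 and 530. Lymphocyte markers were at 1.01 CPM in Flexor replicate 1, against 0.553, 0.56 and 0.599.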

How the results depend on the processing

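Of 1404 single-gene values of the 9 genes under other settings, 1289 kept their direction and their side of the threshold. In an unchanged direction, 20 lost a call and 29 gained one. The other 66 changed direction, and some of them also lost or gained a call with the skeletal muscle covariate. C4b and C7 lower in Supraspinatus than in Flexor, C3 lower in Supraspinatus than in Flexor, and C7 lower in Supraspinatus and in Patellar than in Achilles kept their calls in all of them. C4b lower in Supraspinatus than in Achilles, and C3, C4b and C7 lower in Supraspinatus than in Patellar, lost theirs only with the skeletal muscle covariate. Of the 66, 25 came with the skeletal muscle covariate, whose values do not overlap between tendons. With it, Supraspinatus minus Achilles was 0.037 for C3. Patellar minus Achilles was -0.47 for C1qa, -0.25 for C1qb, -0.74 for C1qc, -0.73 for C1ra, -1.84 for C1s1, -1.15 for C3 and -2.04 for C4b. Supraspinatus minus Flexor was 0.13 for C1qa, 0.10 for C1qb, 0.011 for C1qc and 0.20 for C1s1. Patellar minus Flexor was -1.25 for C1qa, -1.06 for C1qb, -1.52 for C1ra, -2.96 for C1s1 and -3.08 for C4b. Supraspinatus minus Patellar was 1.38 for C1qa, 1.17 for C1qb, 1.62 for C1qc, 1.81 for C1ra, 3.16 for C1s1, 1.19 for C3, 1.35 for C4b and 0.30 for C7. The remaining changes of direction were in uncalled values. Serping1 in Patellar minus Achilles was 0.095 under a filter on mean CPM of 5 and 0.021 with voom. C1ra in Supraspinatus minus Flexor was -0.043 under the mean CPM filter. In the other pairs, C1s1 in Patellar minus Flexor was -0.045 with no filter and -0.16 with voom, C1qc in Supraspinatus minus Patellar was 0.039 with no filter, and C1qc in Patellar minus Flexor was 0.007 without Achilles replicate 3 and Patellar replicate 1.

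Leaving out 1 library at a time gave ranges across 0 in uncalled values. In Supraspinatus minus Achilles they were -0.063 to 0.615 for C1qa, -0.019 to 0.68 for C1qb and -0.073 to 0.581 for C1qc. In Supraspinatus minus Flexor they were -0.50 to 0.14 for C1qa, -0.52 to 0.16 for C1qb, -0.583 to 0.013 for C1qc and -0.10 to 0.15 for C1ra. In Patellar minus Flexor they were -0.299 to 0.035 for C1qc, -0.35 to 0.26 for C1s1 and -0.004 to 0.50 for C4b. In Supraspinatus minus Patellar they were -0.40 to 0.18 for C1qc and -0.51 to 0.16 for C1s1, and in Patellar minus Achilles -0.22 to 0.14 for Serping1.

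Genes of the 9 called in Patellar minus Achilles (1) came to 2 when a mean CPM of 5 was required, 3 with the muscle covariate, 2 without Achilles replicate 3 and Patellar replicate 1, and 1 to 4 on leaving out 1 library. In Flexor minus Achilles (1) they came to 0 with no filter and with rRNA-like genes left out, 2 with DESeq2, with voom and without the 2 libraries, 4 with the covariate, and 0 to 1 on leaving out 1 library. In Patellar minus Flexor (1) they came to 0 under the mean CPM filter, 4 with the covariate (C1s1, C3, C4b and C7, with Serping1 lost), 2 without the 2 libraries, and 0 to 1 on leaving out 1 library. In Supraspinatus minus Patellar (3) they came to 1 with the covariate, C1s1, which is not among those 3. Counts over all genes under that filter, which tests fewer genes, were 8914 over 4 tendons, 4720 in Supraspinatus minus Achilles, 5613 in Patellar minus Achilles, 6904 in Patellar minus Flexor and 7095 in Supraspinatus minus Patellar. With the covariate they were 5207, 4609, 4569 and 3742 in those 4 pairs. With the 8 libraries of the pair alone they were 5854 in Patellar minus Achilles and 6580 in Flexor minus Achilles, and on leaving out 1 library the Flexor minus Achilles count ran from 2520 to 5358. Apart from fewer genes tested or fewer libraries, the cause was not tested.

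The mouse number as a replicate block made C3 pass in Supraspinatus minus Achilles (-0.94, adjusted p = 0.0363) and turned C1s1 in Patellar minus Flexor to -0.049. It gave 3 of the 9 genes over 4 tendons, as did the mean CPM filter and 9 of 16 fits with 1 library left out, and changed no other pairwise call. Same-numbered libraries deviated together with r of at most 0.0784 except between Supraspinatus and Flexor, where r ran from 0.00181 to 0.255. There the mean r was 0.122 for equal numbers, against -0.0403 for unlike numbers. Equal numbers had the higher mean r in every pair with Supraspinatus and the lower in the other pairs. Such values cannot settle whether equal numbers are the same mouse. The labels do not say, so the main fit took no pairs. C7 in Supraspinatus rested on 33 counts in its lowest library.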
